A study of Ovis aries with 18 samples.

Results

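The RNA exosome is the machine that trims and destroys RNA from its 3′ end in the nucleus and the cytoplasm. The genes described here are 10 of its components, namely EXOSC1, EXOSC2, EXOSC3, EXOSC4, EXOSC7, EXOSC8, EXOSC9, EXOSC10, DIS3 and MTREX, out of 20092 genes in a count table of sheep embryos. They were listed by name as exosome genes, and EXOSC9 was picked because its counts were higher in embryos sired by methionine-fed rams, so its diet difference below is a description with no test. All 10 passed the filter on low counts, which kept the 16488 genes that reached 15 counts in over 3 pools. Of the 10, 9 had at least 15 counts in each of the 12 pools and EXOSC4 did so in 10.

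Polypay rams were assigned to a basal diet (control) or to the same diet with a top-dress of 1.5 g (0.22%) rumen-protected methionine, an essential amino acid and a source of methyl groups, coated to escape breakdown in the rumen. The rams were bred to ewes, and the blastocysts collected, labelled as inner cell mass and trophectoderm, were combined into 12 pools of 5 embryos, 6 per diet. No pool received methionine itself, so each comparison is between embryos of differently fed sires. The labels do not give the ewe of each pool. The control pools came from Ram410, Ram423 and Ram444, with 2 pools each, whereas Ram424 sired 4 of the 6 methionine pools, and Ram498 and Ram511 sired 1 each. Pools of one ram share a sire and are not independent.

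Inside the exosome, EXOSC4 to EXOSC9 build a barrel with a central channel and have lost the catalytic activity of their bacterial relatives. EXOSC1, EXOSC2 and EXOSC3 sit on top as an RNA-binding cap. The cutting is done by DIS3, which degrades RNA arriving through the channel, and by EXOSC10, a nuclear nuclease, while the helicase MTREX unwinds nuclear RNA and feeds it in. The complex matures ribosomal RNA, clears cryptic and faulty transcripts, and takes part in turnover of messenger RNA, which embryos remodel as they pass from maternal transcripts to their own. EXOSC5 and EXOSC6, also barrel subunits, were in the table but not among the 10, and their values are given beside them.

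Depth ranged from 1017847 counts in Embryo511_1 to 2398589 in Embryo424_1, and levels are given as CPM, that is counts scaled to a common depth with the TMM method. RNA was amplified as a whole transcriptome without molecular identifiers, so counting intervals cover counting error only. Because no transcript lengths were used, levels of exosome genes are compared between pools for one gene and never between genes, and the marker or list gene with the highest CPM is named without regard to length. A pool is bulk RNA, in which fewer cells of a type and less RNA per cell cannot be told apart.

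Of the 12 pools, 2 stood apart from the rest. The median Spearman correlation of a pool with the other 11 pools lay between 0.820 and 0.857 for 10 pools, but was 0.582 for Embryo444_2 (control) and 0.600 for Embryo511_1 (methionine). Trophectoderm markers, which label the outer layer that forms the placenta, summed to 232 CPM in Embryo444_2 and 213 CPM in Embryo511_1, against 5269 to 14367 CPM in the other 10 pools. KRT8, a trophectoderm keratin and the marker of this list with the highest CPM, had 164 and 43 counts there, compared with 5486 to 24131 counts elsewhere. In these 2 pools the labelled blastocyst tissue was therefore nearly without its main keratin, although none of the 8 trophectoderm markers in the table was at 0. ELF5, a transcription factor gene of the same list, was not low there, at 29.0 CPM in Embryo444_2 and 66.4 CPM in Embryo511_1, the highest of the methionine pools. KRT19 was the highest of the methionine pools in Embryo511_1, at 18.8 CPM, but the lowest of the control pools in Embryo444_2, at 8.49 CPM.

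The summed inner cell mass lists were lower there as well, though not each of their genes. Epiblast markers summed to 143 CPM in Embryo444_2 and 218 CPM in Embryo511_1, against 444.4 to 1214 CPM elsewhere, and hypoblast markers to 273 and 289 CPM, against 419 to 961 CPM. The hypoblast sum was low with GATA6, at 38.9 and 66.4 CPM there against 249 to 801 CPM elsewhere, while PDGFRA was highest in Embryo444_2 (166 CPM), GATA4 in Embryo511_1 (94.2 CPM) and the epiblast marker DPPA4 in Embryo444_2 (44.6 CPM). Oocyte transcripts reached 753 CPM in Embryo511_1, with ZP3, which codes for an egg coat protein, at 414 counts and ZP2, likewise, at 207, whereas they lay between 106 and 172 CPM in the other 11 pools. DAZL, a germ cell gene of that list, was near its lowest in Embryo511_1, at 3.97 CPM against 3.96 to 19.8 CPM elsewhere. Blood and immune markers were highest in the same 2 pools, at 137 and 263 CPM against 60.6 to 100.8 CPM, of which PTPRC made up 121 and 254 CPM. CD68 of the same list was lowest in them, at 6.37 and 1.98 CPM. Markers of uterine epithelium and stroma were also highest there, at 282 and 216 CPM against 125 to 187 CPM. Of these, COL1A1, a collagen gene, made up 115 and 119 CPM. FOXJ1 of that list, though, was lowest in Embryo511_1 (2.97 CPM). VIM had its fewest counts in Embryo444_2 (14 counts, not scaled for depth). Both diets held one such pool. No marker passed an FDR of 0.05 between the diets in edgeR, and the marker values that follow are descriptions. PDGFRA (edgeR FDR 0.663) lay between 96.3 and 129 CPM in methionine pools and between 131 and 166 CPM in control pools, without overlap. Such a separation, in either direction, was found for 58 genes (0.352% of those tested). KRT19 and FOXJ1 had log2 fold changes of −1.31 and −1.09 (−1.64 and −0.77 in the 10 pools). ZP3 and ZP2 had 2.35 and 0.98 (0.46 and 0.30 in the 10 pools). These last values rested on Embryo511_1, at 410 CPM of ZP3 and 205 CPM of ZP2. The other methionine pools had at most 26.8 and 53.1 CPM. The part of cell makeup in the results below was not tested. The fold changes of the exosome genes and the medians of the gene lists below are given with all 12 pools and again with the other 10.

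**Figure D1:**
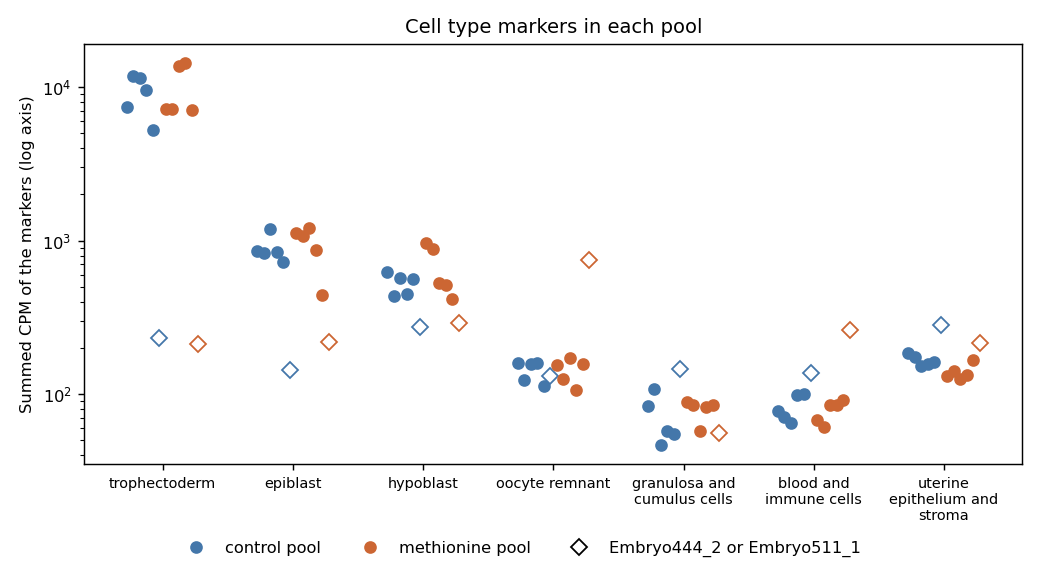
Summed CPM of the cell type markers (log axis) in each pool, with lists along the horizontal axis, control pools in blue, methionine pools in orange, and Embryo444_2 and Embryo511_1 as open diamonds. The diamonds lie at 232 and 213 CPM for trophectoderm, far below the other 10 pools, and Embryo511_1 is highest for oocyte transcripts.

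Embryo424_1 and Embryo424_2 were the most alike pair. Their counts differed by 3.29 times the variance expected from sampling noise, compared with at least 8.29 times for every other pair, so they were more alike than other pools of one ram but not identical within noise. They were kept as separate pools.

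EXOSC9, a barrel subunit that pairs with EXOSC4, was higher in embryos of methionine-fed sires. In the control pools it stood at 32.4 and 19.8 CPM for Ram410, 23.6 and 30.8 CPM for Ram423, and 24.1 and 24.1 CPM for Ram444. In the methionine pools it stood at 54.0, 57.2, 49.4 and 58.5 CPM for Ram424, 41.6 CPM for Ram498 and 41.6 CPM for Ram511. Every methionine pool was above every control pool. The means were 50.4 ± 7.49 CPM and 25.8 ± 4.78 CPM (SD, n = 6 each), and the fitted log2 fold change was 0.97 (SE 0.23), or 1.95-fold.

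Those levels rest on few reads. The counts of EXOSC9 ran from 28 to 48 in control pools and from 42 to 119 in methionine pools, and the 28 counts of Embryo410_2 carry a 95% Poisson interval of 18.6 to 40.5 counts. On the CPM scale the interval of the highest control pool, Embryo410_1, reached 43.6 CPM. Those of the lowest methionine pools, Embryo498_1 and Embryo511_1, began at 32.3 and 30.0 CPM. The nearest pools of the groups thus overlap in counting error. A separation of all 12 pools with methionine above was found for 26 genes (0.158% of those tested), and 375 genes (2.27%) had a fold change at least as large. Nothing is read from these shares, since EXOSC9 was chosen on this contrast.

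The higher level was seen in pools of each methionine ram, but its size leaned on Ram424. The ram means of EXOSC9 were 26.1, 27.2 and 24.1 CPM for the control rams, and 54.8 CPM for Ram424, 41.6 CPM for Ram498 and 41.6 CPM for Ram511. Without Ram424 the log2 fold change was 0.69 instead of 0.97. Without Embryo444_2 and Embryo511_1 it was 0.98 (SE 0.23), and the pools still did not overlap, with methionine above, as for 145 genes (0.879%). EXOSC9 had 24.1 CPM in Embryo444_2 and in Embryo444_1, from 34 counts each. It had 41.6 CPM in Embryo511_1 and in Embryo498_1, from 42 and 69 counts. The part of cell makeup in these values was not tested.

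**Figure D2:**
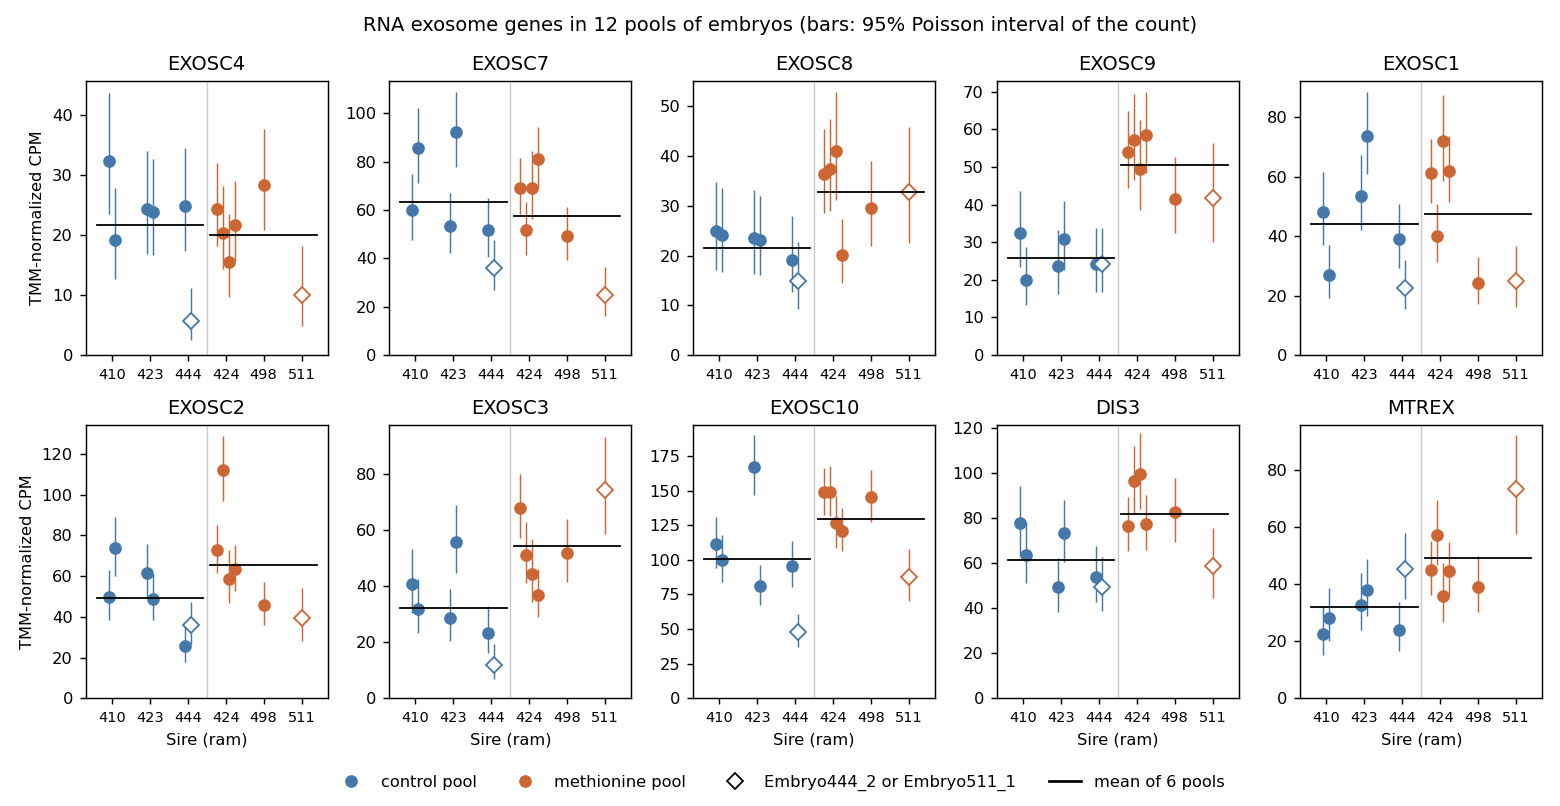
TMM-normalized CPM of the 10 exosome genes in each of the 12 pools, grouped along the horizontal axis by sire, with 95% Poisson intervals of the counts as bars and the mean of the 6 pools of each diet as a black line (linear axes from 0, scaled per gene). EXOSC9 is the only panel in which all 6 methionine pools (41.6 to 58.5 CPM) lie above all 6 control pools (19.8 to 32.4 CPM).

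None of the other 9 genes passed a false discovery rate (FDR) of 0.05 in the quasi-likelihood test of edgeR. Nor did any of the 16488 genes tested (0% called), while 1306 (7.92%) had an unadjusted p under 0.05, 586 of them (3.55%) higher and 720 (4.37%) lower with methionine. Other tests called few genes, namely 5 (0.0303%) by edgeR's likelihood-ratio test, 16 (0.097%) by DESeq2, and 1 (0.00619%) by the quasi-likelihood test in the 10 pools. EXOSC9 was one of the 16, which is no independent evidence, and none of the other 9 was called by any of them. Among the 9, 3 had an unadjusted p under 0.05, all higher with methionine, namely EXOSC3, EXOSC8 and MTREX. This test takes pools of one ram as independent. The 3 became 0 with pools summed per ram, where 572 of all 16488 genes had an unadjusted p under 0.05. With ram as a random effect in limma the 3 became 1, against 355 of 16488 genes. Without Ram424 the 3 became 0, against 1338 of 15594 genes. Leaving out single pools gave 0 of the 9 without Embryo444_1, 1 without Embryo424_1, Embryo424_2 or Embryo444_2, and otherwise 2 or 3. These were not always the same genes. DIS3 took the place of MTREX without Embryo410_1, and EXOSC10 that of EXOSC3 without Embryo423_1. Without Embryo511_1 they were EXOSC8 and DIS3. Over all genes, the fits without single pools gave from 933 of 16321 (without Embryo424_1) to 1941 of 16382 (without Embryo511_1). In the 10 pools MTREX alone of the 3 was left, while DIS3 came under 0.05, against 1925 of 16161 genes.

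A positive log2 fold change was fitted for 7 of the 9, compared with 50.5% of all genes, and their median was 0.41, compared with 0.01 over all genes. In the 10 pools 7 of 9 were again positive and the median was 0.43, with a median of −0.03 over all genes, of which 47.0% were positive. The median of the 9 was 0.17 without Ram444 and 0.21 without Ram424. The 9 genes were listed with earlier results known, and their values are not independent of each other.

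The other barrel subunits differed among themselves. EXOSC8, a barrel subunit with no catalytic site, ranged from 14.9 to 24.8 CPM in control pools (median 23.3 CPM) and from 20.2 to 40.9 CPM in methionine pools (median 34.5 CPM). The only methionine pool inside the control range was Embryo424_4, at 20.2 CPM. Its log2 fold change was 0.60 (SE 0.26, edgeR FDR 0.608), and 0.50 (SE 0.26) in the 10 pools. The means of the 3 methionine rams lay above those of the 3 control rams, for which the exact permutation test gives p = 0.1, the smallest it can give. The exact test over pools, which takes pools of one ram as independent, gave p = 0.0130.

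EXOSC4, the barrel partner of EXOSC9, had no such shift. It ranged from 5.66 to 32.4 CPM in control pools (median 24.0 CPM) and from 9.91 to 28.3 CPM in methionine pools (median 21.0 CPM), with a log2 fold change of −0.10 (SE 0.37, edgeR FDR 0.963), and −0.18 in the 10 pools. Its lowest values were those of Embryo444_2 (8 counts) and Embryo511_1 (10 counts), the 2 pools poor in trophectoderm markers. EXOSC9 had 24.1 and 41.6 CPM there, inside the range of the other pools of each diet or at its lower end.

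EXOSC7, likewise a barrel subunit, overlapped in part between the diets. Control pools lay between 36.1 and 92.4 CPM (median 56.9 CPM) and methionine pools between 24.8 and 81.1 CPM (median 60.3 CPM). The log2 fold change was −0.13 (SE 0.30, edgeR FDR 0.929), and −0.11 in the 10 pools, but −0.75 without Ram424. The lowest pool of each diet was again the one that stood apart.

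Of the barrel subunits outside the 10, EXOSC5 had a log2 fold change of 0.41 (SE 0.44, edgeR FDR 0.828) that rested on Embryo511_1, at 89.2 CPM. It was 0.015 without that pool, 0.22 without Embryo444_2, 0.25 without Embryo410_1 and 0.63 without Embryo444_1. The EXOSC5 value was 0.96 without Ram424 and −0.18 in the 10 pools. EXOSC6 had −0.32 (SE 0.54, edgeR FDR 0.896), with 3 counts in Embryo444_2 and 1 count in Embryo511_1 against 10 to 37 counts elsewhere, and −0.34 in the 10 pools. The EXOSC6 value moved with single pools, from −0.61 without Embryo424_3 and −0.55 without Embryo444_2 to −0.16 without Embryo423_2, −0.18 without Embryo498_1 and −0.10 without Embryo511_1, and with rams, from −1.99 without Ram424 to −0.067 without Ram423. The barrel thus gave log2 fold changes from −0.32 for EXOSC6 to 0.97 for EXOSC9.

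Of the cap subunits, EXOSC3, which contacts RNA at the channel entrance, had the highest fold change. It stood at 40.6 and 31.9 CPM for Ram410, 28.6 and 55.8 CPM for Ram423, and 23.4 and 12.0 CPM for Ram444. In methionine pools it stood at 67.9, 51.0, 44.5 and 36.9 CPM for Ram424, 51.8 CPM for Ram498 and 74.4 CPM for Ram511. The lowest control and the highest methionine value belonged to the 2 pools that stood apart, and Embryo410_1 and Embryo423_2 lay within the methionine range. The log2 fold change was 0.76 (SE 0.32, edgeR FDR 0.607), and 0.47 (SE 0.27) in the 10 pools. Its ram means separated by diet (exact permutation p = 0.1, the smallest possible).

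EXOSC2, a cap subunit that contacts RNA, ranged from 25.5 to 73.7 CPM in control pools and from 39.7 to 112 CPM in methionine pools, with a log2 fold change of 0.41 (SE 0.30, edgeR FDR 0.741), and 0.43 in the 10 pools. The groups overlapped, and only Embryo424_2 exceeded the control range. The value was 0.19 without that pool and −0.20 without Ram424. EXOSC1, the remaining cap subunit, ranged from 22.7 to 73.8 CPM and from 24.1 to 72.0 CPM, and its log2 fold change of 0.11 (SE 0.35, edgeR FDR 0.954) was 0.091 in the 10 pools but −0.84 without Ram424. The pools of Ram498 and Ram511, at 24.1 and 24.8 CPM, were among its lowest.

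The nucleases had intermediate values. DIS3, the main processive nuclease, lay between 49.3 and 77.5 CPM in control pools (median 58.8 CPM) and between 58.5 and 99.5 CPM in methionine pools (median 79.8 CPM). Its log2 fold change was 0.42 (SE 0.22, edgeR FDR 0.663), and 0.43 in the 10 pools, with overlapping ranges, but 0.21 without Ram424. EXOSC10, the nuclear nuclease, lay between 48.1 and 167 CPM (median 97.8 CPM) and between 87.2 and 149 CPM (median 136 CPM), with a log2 fold change of 0.37 (SE 0.28, edgeR FDR 0.748), and 0.30 in the 10 pools. Single control pools moved it, to 0.22 without Embryo444_2 and 0.57 without Embryo423_1, and it was 0.17 without Ram444. The highest EXOSC10 pool of all, Embryo423_1, was a control pool. The lowest of each diet was Embryo444_2 and Embryo511_1.

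MTREX, the nuclear helicase, stood at 22.6 and 28.3 CPM for Ram410, 32.9 and 37.9 CPM for Ram423, and 24.1 and 45.3 CPM for Ram444. It stood at 44.9, 57.2, 36.0 and 44.7 CPM for Ram424, 39.1 CPM for Ram498 and 73.4 CPM for Ram511. The pools that stood apart were the highest of their diets, the opposite of EXOSC4 and EXOSC7. The log2 fold change was 0.62 (SE 0.26, edgeR FDR 0.607) and 0.59 (SE 0.24) in the 10 pools. Its ram means separated by diet (exact permutation p = 0.1, the smallest possible), while the pools overlapped.

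**Figure D3:**
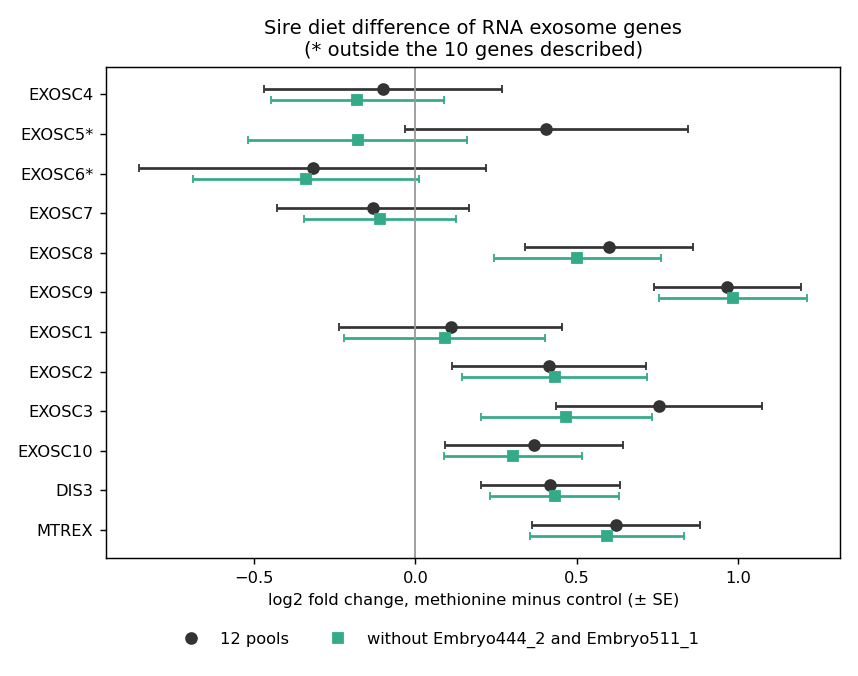
Fitted log2 fold change of methionine over control sires (horizontal axis, bars are SE) for 12 exosome genes, with all 12 pools in black and without Embryo444_2 and Embryo511_1 in green; EXOSC5 and EXOSC6 are outside the 10 genes. Values run from −0.32 for EXOSC6 to 0.97 for EXOSC9, and only EXOSC5 changes sign between the sets of pools.

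As a share of the counts of the 10 genes together, EXOSC9 made up 5.90% ± 1.45 in control pools and 8.57% ± 0.794 in methionine pools (SD, n = 6 each). The shares overlapped, because Embryo444_2 reached 8.17% where the other 9 genes summed to 270 CPM, the lowest of all pools. Without Embryo444_2 and Embryo511_1 the shares ran from 4.19% to 6.48% and from 7.74% to 9.97%. Nothing is read from these shares, since EXOSC9 was picked for its higher counts in methionine pools. The summed level of the other 9 genes ranged from 270 to 509 CPM in control pools and from 425 to 615 CPM in methionine pools.

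Partners of the exosome and the other routes of RNA decay were described from 5 lists of 64 genes, of which 59 were tested. None of the 59 passed an FDR of 0.05, with 1 higher and 1 lower at an unadjusted p under 0.05, against 3.55% and 4.37% of all genes. A positive log2 fold change was fitted for 42 of 59, compared with 50.5% of all genes, with a median of 0.14 compared with 0.01. In the 10 pools it was positive for 44 of 58, compared with 47.0% of all genes, with a median of 0.15 compared with −0.03. The nuclear cofactors, which guide the exosome to nuclear RNA, had 8 of 14 positive and a median of 0.05, and 11 of 14 and 0.13 in the 10 pools. The list of cytoplasmic partners also holds relatives of DIS3, and its tested genes were TTC37, WDR61, PELO and DIS3L2. It had 3 of 4 positive and a median of 0.10, and 4 of 4 and 0.075 in the 10 pools.

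The gene furthest from 0 among the named cofactors was NRDE2, which binds MTREX and restrains its recruitment. It was lower in methionine pools, at 20.5 to 33.5 CPM (median 29.4 CPM) against 39.1 to 93.0 CPM (median 44.8 CPM) in control pools, and the pools did not overlap, as for 58 genes (0.352%) in either direction, and 290 (1.76%) in the 10 pools. The log2 fold change was −1.04 (SE 0.29, edgeR FDR 0.584), and −0.86 in the 10 pools, and the highest pools were the 2 of Ram444. SRRT, which links capped RNA to decay and processing, had a log2 fold change of 0.78 (edgeR FDR 0.615), and MPHOSPH6, which helps attach MTREX, had 0.61. In the 10 pools they had 0.71 and 0.61.

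The parallel decay routes had small medians, and several of their named genes rested on 1 pool. Decapping and decay from the 5′ end had 16 of 18 positive and a median of 0.23, and 12 of 17 and 0.21 in the 10 pools. LSM1 was at 0.69 and LSM6 at 0.62 on the log2 scale (0.63 and 0.43 in the 10 pools), both parts of the LSM ring that marks messages for decapping. DCP1B was at 0.71, with 120 CPM in Embryo498_1, but its median was 25.8 CPM in methionine pools and 27.0 CPM in control pools. LSM7 was at −0.50, with 806 CPM in Embryo423_1, and its medians were 215 CPM in methionine pools and 205 CPM in control pools.

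Deadenylation, the shortening of poly(A) tails, had 10 of 14 positive and a median of 0.16, and 13 of 14 and 0.23 in the 10 pools. CNOT1, the scaffold of that complex, was at 0.45 and CNOT11 at 0.52, with 0.40 and 0.34 in the 10 pools. CNOT9 was at 0.70 but at 0.32 in the 10 pools, its highest value being 164.6 CPM in Embryo511_1 and its lowest 21.9 CPM in Embryo444_2. CNOT3 was at 0.59, with 122 CPM in Embryo424_3 against at most 47.6 CPM in the other methionine pools.

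Nonsense-mediated decay, which removes messages with early stop codons, had 5 of 9 positive and a median of 0.10, and 4 of 9 and −0.018 in the 10 pools. SMG8 turned from 0.45 to −0.30 in the 10 pools, since Embryo511_1 had 137 CPM and no other pool over 46.8 CPM. SMG5 was at 0.37 (0.24 in the 10 pools), the kinase SMG1 at 0.19 (0.15) and UPF3A at −0.36 (−0.40). In the cytoplasmic list PELO was at 0.29 (0.38), WDR61 at 0.15 (0.020) and TTC37 at 0.05 (0.13), and DIS3L2 was at −0.00. None of these named genes passed the FDR threshold.

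Across the 12 pools, the exosome genes varied together to different degrees. These correlations are descriptions over pools that share sires, depth and diet. The 45 pairs had a median Pearson r of 0.40, from −0.53 for EXOSC4 with MTREX to 0.80 for EXOSC3 with EXOSC8, compared with a median of −0.02 for the 10 genes with all genes. After each diet's mean was taken out the median was 0.33, and in the 10 pools it was 0.20. With EXOSC9, DIS3 had r = 0.75, EXOSC8 0.64, EXOSC3 0.64, MTREX 0.57, EXOSC10 0.46, EXOSC2 0.45, EXOSC1 0.36, EXOSC4 0.13 and EXOSC7 0.03. The diet difference for which EXOSC9 was picked enters these values. With the diet means taken out, r was 0.55 for DIS3, 0.014 for EXOSC8, 0.20 for EXOSC3, −0.13 for MTREX, 0.11 for EXOSC10, 0.27 for EXOSC2, 0.70 for EXOSC1, 0.35 for EXOSC4 and 0.42 for EXOSC7.

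**Figure D4:**
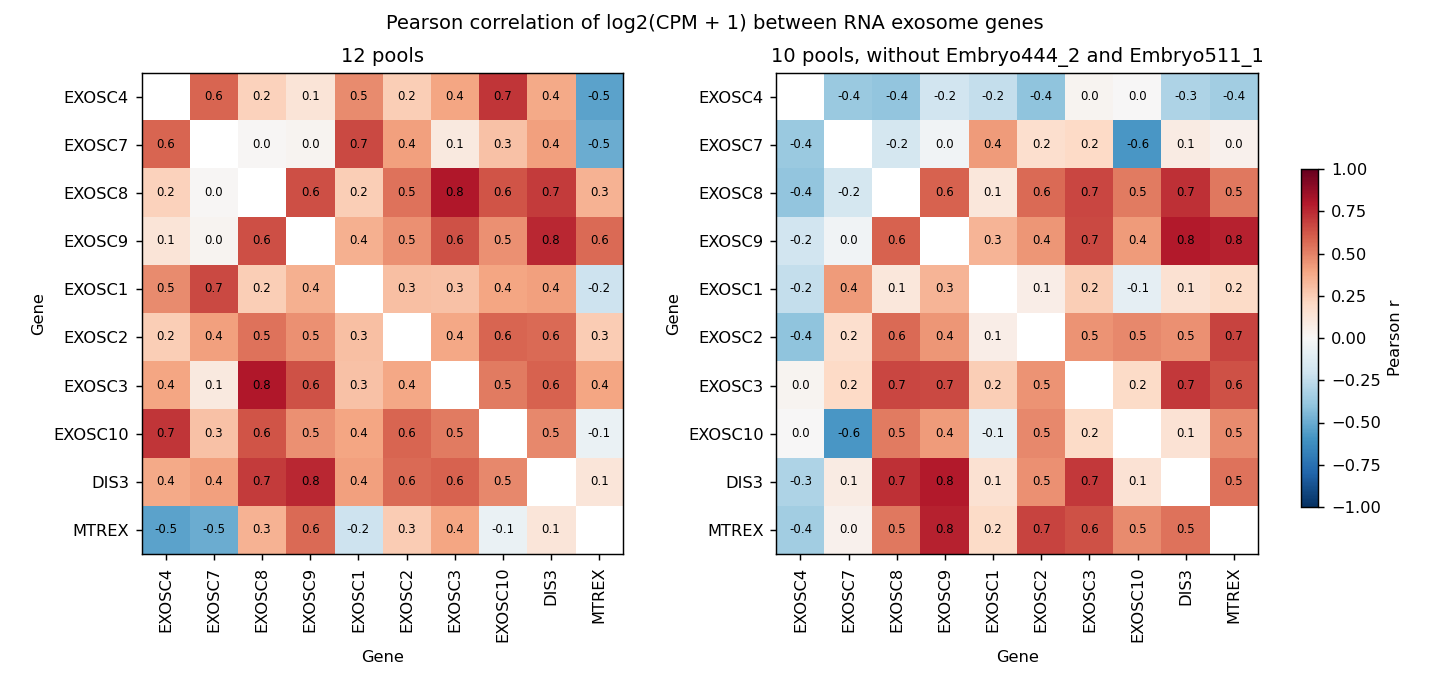
Pearson correlation of log2(CPM + 1) between each pair of the 10 exosome genes, over 12 pools (left) and over the 10 pools without Embryo444_2 and Embryo511_1 (right), coloured from −1 (blue) to 1 (red). EXOSC4 with EXOSC7 is at 0.58 over 12 pools and −0.37 over 10, while the block of EXOSC8, EXOSC9, EXOSC3 and DIS3 is red in both.

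Among the 5 genes whose levels were most like those of EXOSC9 over the 12 pools were RNF11 (Pearson r = 0.885), which codes for a ubiquitin ligase, the uncharacterized LOC114117916 (0.868), the splicing factor gene SRSF11 (0.858) and PAPOLG (0.854), which codes for a poly(A) polymerase. The median over all genes was −0.01. These genes share the diet groups with EXOSC9, and the order depended on the measure. Of the 5, 3 stayed among the top 5 by Spearman correlation, 1 when diet means were taken out, and 0 in the 10 pools.

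The counting can mix neighbouring genes. The RefSeq annotation used for this was that of assembly ARS-UI_Ramb_v3.0, which is not the build of the counts. In it the span of EXOSC9 overlaps that of CCNA2, the gene of cyclin A2. Of the 10 exosome genes, 7 overlap another gene, namely EXOSC1, EXOSC3, EXOSC4, EXOSC8, EXOSC9, DIS3 and MTREX. Whether the counting used strand is not given in the sources used here, so reads from such overlaps cannot be told apart. CCNA2 stood at 54.2, 33.3, 45.7, 43.6, 48.3 and 7.08 CPM in the control pools, in the order of rams given for EXOSC9, and at 132, 127, 65.6, 80.6, 35.5 and 14.9 CPM in the methionine pools.

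The pools of CCNA2 overlapped between diets, while those of EXOSC9, which was picked on this contrast, did not. The log2 fold change of CCNA2 was 0.98 (SE 0.47, edgeR FDR 0.639), and 0.96 in the 10 pools. CCNA2 was lowest in Embryo444_2 and Embryo511_1, with 10 and 15 counts. The Pearson correlation of CCNA2 with EXOSC9 was 0.57 over 12 pools and 0.78 over 10. With the diet means taken out it was 0.58, and of the exosome genes only EXOSC1 was higher, at 0.70. The part of shared reads in the EXOSC9 values was not tested.

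**Figure D5:**
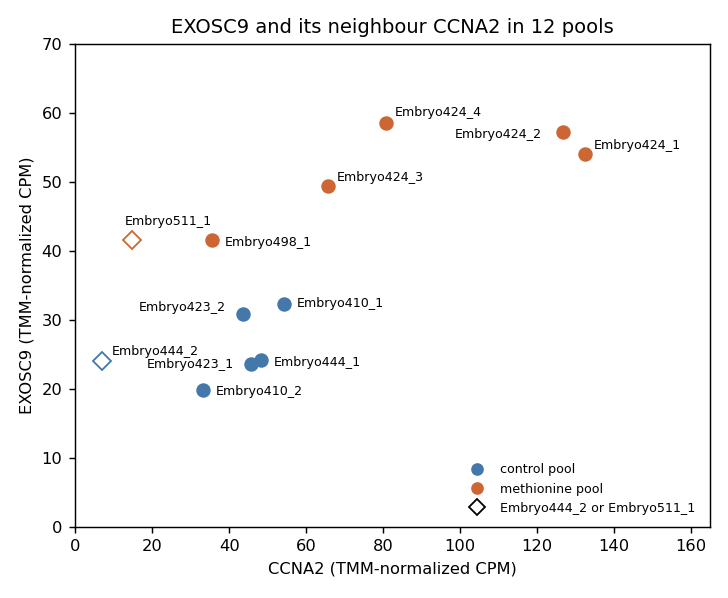
TMM-normalized CPM of EXOSC9 (vertical axis) against its overlapping neighbour CCNA2 (horizontal axis) in each labelled pool, with control pools in blue, methionine pools in orange and the pools that stood apart as open diamonds. EXOSC9, picked on the diet contrast, runs from 19.8 to 32.4 CPM in control pools and from 41.6 to 58.5 CPM in methionine pools. The open diamonds lie at 7.08 and 14.9 CPM of CCNA2.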

How the data were processed

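Embryos were pooled by sire and dam, and RNA was extracted, amplified as a whole transcriptome and sequenced. The authors trimmed reads with Trimmomatic, aligned them with STAR to Oar_rambouillet_v1.0 and deposited raw counts per gene; the versions of Trimmomatic and STAR are not given in the sources used here. The counts were analysed here with edgeR 4.0.16 in R 4.3.3: genes reaching 15 counts in over 3 pools were kept, TMM scaling was applied, and diet was tested with the quasi-likelihood test (two-sided, Benjamini-Hochberg over 16488 genes). Exact permutation tests used log2(CPM + 1). Alternatives used DESeq2 1.42.0 and limma 3.58.1. The code was tested on simulated data.

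The 10 genes, the lists and the tests were chosen with earlier results of these data known. Named genes were the exosome genes, per list the 3 with the smallest p and the 1 with the highest CPM, the 5 most like EXOSC9, and its overlapping neighbour; some genes this rule selects are not reported here. Marker genes not in the table were not analysed here. Gene names matched the RefSeq table for all 10. The sperm methylation files of the 6 rams were not used here, because no gene coordinates of their build were at hand, and the 2 planned sperm results were not run.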

Additional observations from a re-analysis of the deposited data

Results flagged for a closer look

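EXOSC5, a barrel subunit outside the 10 genes, had 89.2 CPM in Embryo511_1, far from the other 5 methionine pools, of which the next was at 35.4 CPM. The gap was 0.834 of the group's range, above the critical value of 0.625 for 6 samples. Chance alone flags about 1 group in 20, and 24 groups were examined.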

How the results depend on the processing

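Gene counts past an FDR of 0.05 were 0 in the quasi-likelihood test, 5 in the likelihood-ratio test (C20H6orf136, CERS1, HRC, LOC114111604 and UNC93A), 16 in DESeq2 and 1 (MROH5) without the 2 pools that stood apart. The 16 included EXOSC9, which had been chosen on this contrast and is no independent evidence; none of the other 9 exosome genes or the decay genes was called under any of the 28 alternatives. The median of the 9 genes stayed positive, from 0.17 without Ram444 to 0.51 without Ram423. EXOSC9 ranged from 0.69 without Ram424 to 1.04.

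The fold changes of EXOSC1, EXOSC2, EXOSC4, EXOSC5 and EXOSC7 turned direction under some alternatives. EXOSC1 was −0.24 with pools summed per ram, −0.046 with limma and ram as a random effect, −0.84 without Ram424, −0.093 without Ram444, and from −0.051 to 0.31 when single pools were left out. EXOSC2 was −0.20 without Ram424. EXOSC4 was 0.033 with limma, 0.038 without Ram410, 0.028 without Ram511, and from −0.30 to 0.046 over single pools. EXOSC7 was 0.017 without Ram511 and from −0.25 to 0.017 over single pools. It was −0.37 with pools summed per ram, −0.34 without Ram444 and −0.75 without Ram424. EXOSC5 was −0.18 in the 10 pools. The cause was not tested.

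Summing Embryo424_1 and Embryo424_2, chosen after seeing the data, changed no call. No paired analysis was possible because pool numbers are counted within each ram. The sperm results were not run. Among the exosome genes, EXOSC4 and EXOSC6 had the fewest counts, down to 8 in Embryo444_2 and 1 in Embryo511_1.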
